A study of Rattus norvegicus with 6 samples.

Results

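The 10 genes described here encode ligands, receptors and inhibitors of transforming growth factor beta (TGF-beta) and activin signaling. They were picked by symbol from the deposited table: the ligand genes Tgfb1, Tgfb2, Tgfb3, Inhba, Inhbc and Inhbe, the receptor genes Tgfbr1 and Tgfbr2, and the inhibitor genes Fst and Smad7. All 10 were found among 32623 genes in the table, and all 10 were among the 14298 genes that passed the filter on low counts. Messenger RNA was sequenced in bulk from 6 rat liver libraries, 3 after embolization with zinc sulfide (ZnS) microspheres (GZM) and 3 after embolization with blank microspheres (GM), the control. The beads lodge in arteries and cut the blood supply, and the title names hepatocellular carcinoma as the setting. The labels give neither strain, sex, age, dose nor time after embolization. They do not say whether a sample held tumor or surrounding liver, or whether the replicates were separate animals. The p-values set the group difference against the spread between these libraries, which may not reflect the spread between animals.

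TGF-beta is secreted in a latent form and, once released, binds the type II receptor TGFBR2, which recruits the type I receptor TGFBR1 to phosphorylate SMAD2 and SMAD3. These enter the nucleus with SMAD4, and SMAD7, itself a target of the pathway, feeds back on the receptors. Activins are dimers of inhibin beta subunits. Activin A, made from Inhba, uses its own receptors but the same SMAD proteins and is neutralized by follistatin, the product of Fst. In liver, TGF-beta is known for driving stellate cells toward matrix production and for restraining hepatocyte growth, and the beta C and beta E subunit genes Inhbc and Inhbe are known as hepatocyte genes.

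Inhbe and Inhbc were higher in GZM, Tgfb1 was lower, and the receptor genes, Tgfb2, Tgfb3, Inhba and Smad7 did not pass the test. Inhbe was 8.17-fold and Inhbc 5.08-fold higher in GZM, and Tgfb1 was 1.85-fold lower. Fst also passed as lower, but its GM libraries were split. Thus 2 of the 10 genes rose and 2 fell. Of all tested genes 22.2% rose and 21.7% fell, 44% in all, so 4 of 10 is close to the share over the whole table. The groups did not overlap for 3 of the 10 genes, against 58.1% of all tested genes. The median log2 fold change was 0.17 over the 10 genes and -0.09 over all genes tested.

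Some facts of the whole data set bear on these values. Total counts ran from 13443115 to 16604067 per library, and replicates of a group were distinct libraries (chi-square per degree of freedom of 10.5 or more for each pair). This value was 10.5 for GZM 2 with GZM 3 and 38.6 and 45.7 for the GZM pairs with GZM 1. In GM it was 47.7 for GM 1 with GM 2 and 101.9 and 193.8 for the pairs with GM 3. Levels are given in CPM, the counts of a gene relative to the library total, scaled by TMM factors, which make most genes balance between libraries, and the test is edgeR's quasi-likelihood test with Benjamini-Hochberg adjustment over all 14298 genes. In all 3181 genes rose and 3104 fell at an adjusted p under 0.05. With plain library totals 1318 rose and 8500 fell, and the median log2 fold change of all genes shifted by -0.83. Hepatocyte markers were present in all libraries, and 10 of 11 rose (6 to 11 on leaving out each library in turn), at a summed level of 92859 to 112130 CPM in GZM against 11720 to 43436 CPM in GM, GM 3 being the highest of GM. All 10 cell division markers fell (9 to 10 on leaving out each library), at 179.5 to 197.3 CPM in GZM against 455.0 to 1250.2 CPM in GM, with GM 3 the lowest of GM. In bulk tissue, fewer cells of a type and less RNA per cell cannot be told apart.

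The promoter windows of the genes that passed with groups not overlapping are shown for reference, since Inhbe and Inhbc moved together and Tgfb1 the other way. They are RefSeq windows on build GRCr8, from 250 bases before to 50 bases after the gene start, given with the gene's strand: chr7:65064470-65064769 (minus) for Inhbe, chr7:65082870-65083169 (minus) for Inhbc and chr1:90324062-90324361 (plus) for Tgfb1. Capitals mark a match to any of 7 searched motifs.
Inhbe: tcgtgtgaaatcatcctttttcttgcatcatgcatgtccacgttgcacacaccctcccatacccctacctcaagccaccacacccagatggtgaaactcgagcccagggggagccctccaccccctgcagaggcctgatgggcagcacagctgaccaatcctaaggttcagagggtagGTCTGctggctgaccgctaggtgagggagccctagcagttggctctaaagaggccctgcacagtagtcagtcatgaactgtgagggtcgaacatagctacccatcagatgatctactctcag
Inhbc: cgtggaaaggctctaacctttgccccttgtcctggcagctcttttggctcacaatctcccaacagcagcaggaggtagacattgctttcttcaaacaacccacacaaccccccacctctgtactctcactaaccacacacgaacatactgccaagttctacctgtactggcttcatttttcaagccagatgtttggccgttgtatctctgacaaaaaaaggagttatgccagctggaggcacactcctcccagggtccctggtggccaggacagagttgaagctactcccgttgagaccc
Tgfb1: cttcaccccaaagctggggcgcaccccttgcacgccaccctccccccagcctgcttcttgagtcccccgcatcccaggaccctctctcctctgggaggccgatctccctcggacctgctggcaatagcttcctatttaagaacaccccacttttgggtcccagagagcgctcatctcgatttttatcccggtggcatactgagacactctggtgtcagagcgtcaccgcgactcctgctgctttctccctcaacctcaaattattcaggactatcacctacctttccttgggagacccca
The motifs, searched on both strands, were a TATA box (TATAAA), a GC box (GGGCGG), an AP-1 site (TGAGTCA), a C/EBP site (TTGCNNAA), an HNF4 core (CAAAGT), an HNF1 half-site (GTTAAT) and the 5-letter core of the SMAD element (CAGAC). No motif matched in the Inhbc and Tgfb1 windows, and the Inhbe window held 1 SMAD core, on the reverse strand 72 bases before the start. Of all 33469 windows 50.1% held that core, 33.1% a GC box, 14.8% the HNF4 core, 14.2% the TATA box, 10.6% the C/EBP site, 7.45% the HNF1 half-site and 4.63% the AP-1 site. Of the 10 genes 9 had a window, and Inhba was the single one with a TATA box, 40 bases before its start.

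Inhbe (ENSRNOG00000007601), which encodes the activin beta E subunit, was measured at 324.4, 197.1 and 152.6 CPM in GZM 1, 2 and 3 and at 21.0, 19.5 and 42.1 CPM in GM 1, 2 and 3. Every GZM library was above every GM library. GZM 1 was the highest and GM 3 the GM library nearest to GZM. The difference was 3.03 ± 0.40 on the log2 scale (SE, n = 3 each; edgeR adjusted p = 0.0024), the largest of the 10 genes. The deposited counts behind it were 3238, 2093 and 1946 in GZM and 435, 458 and 820 in GM.

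Inhbc (ENSRNOG00000007700), which encodes the beta C subunit, ranked the 6 libraries in the same order as Inhbe. It stood at 190.1, 107.7 and 90.9 CPM in GZM 1, 2 and 3 against 20.2, 13.1 and 43.2 CPM in GM 1, 2 and 3. The groups again did not overlap, and the difference was 2.35 ± 0.47 on the log2 scale (SE, n = 3 each; edgeR adjusted p = 0.00659). In the deposited table both genes lie on the minus strand of chromosome 7, Inhbe at 70640075 to 70643169 and Inhbc at 70646519 to 70661891, with 3349 bases between them. Since they share a strand, counting by strand would not separate their reads, and reads shared between these neighbors were not examined. Per kilobase of exon, the ratio of Inhbe to Inhbc was 2.48 ± 0.11 in GZM and 1.66 ± 0.39 in GM (mean ± SD of 3 libraries), with no overlap between the groups. In an exact two-sided permutation test over 3 against 3 libraries, p was 0.1, the smallest such a design can give, and 0.136 after Benjamini-Hochberg adjustment over the 19 ratios and shares compared in this way.

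The hepatocyte markers moved with both genes. The mean log2 CPM of the 11 markers was 11.7, 11.62 and 11.35 in GZM 1, 2 and 3 and 8.755, 8.187 and 9.995 in GM 1, 2 and 3. Relative to that mean, Inhbe lay at -3.36, -4.00 and -4.09 in GZM and at -4.37, -3.90 and -4.60 in GM, so that the groups overlapped. The difference of 0.47 had an exact permutation p of 0.3 (0.335 adjusted over the same 19 comparisons). Relative to the same mean, Inhbc lay at -4.13, -4.87 and -4.84 in GZM and at -4.42, -4.47 and -4.56 in GM, a difference of -0.13 with an exact permutation p of 0.7. With 3 against 3 libraries no difference could pass this test, whose smallest p is 0.1, so these values do not show whether the genes moved apart from the hepatocyte markers.

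**Figure D1:**
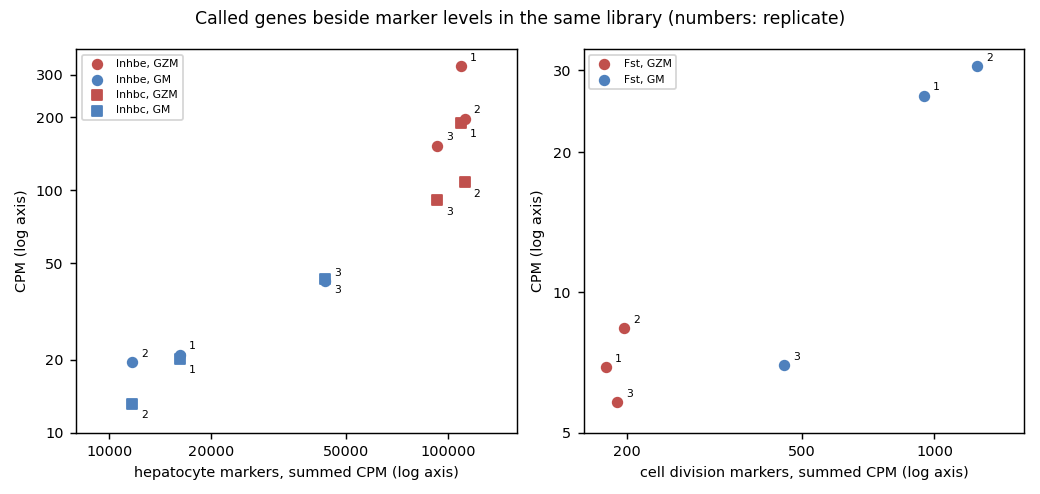
Left, levels of Inhbe (circles) and Inhbc (squares) against the summed CPM of hepatocyte markers; right, levels of Fst against the summed CPM of cell division markers. Each point is 1 library, GZM in red and GM in blue, both axes are logarithmic, and GM 3 lies between the other GM libraries and GZM on the hepatocyte axis and nearest to GZM on the cell division axis.

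The 3 genes whose profiles over the 6 libraries lay nearest to each changed gene, by Euclidean distance between log2 CPM values centered on their mean, were found as a description. For Inhbe they were Afp, the fetal relative of albumin, Hes6 and Igfals, the liver-made subunit of the circulating IGF complex, at distances of 0.36, 0.48 and 0.51. For Inhbc they were Akr1c13, Abat, which breaks down GABA, and the nucleoside transporter gene Slc29a1, at 0.14, 0.19 and 0.21. For Tgfb1 they were Inpp5d, the inositol phosphatase of blood cells, the transcription factor gene Elk3 and the tyrosine phosphatase gene Ptpn1, at 0.19, 0.20 and 0.20. For Fst they were Cxxc4, SNORD28 and Flrt3, at 0.36, 0.53 and 0.58. The distances depend on only 6 libraries in 2 groups.

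Inhba (ENSRNOG00000014320), the beta A subunit from which activin A is made, did not pass the test. Its levels were 8.21, 10.1 and 12.2 CPM in GZM and 12.0, 6.67 and 6.88 CPM in GM. GM 1 lay just below GZM 3, the highest library, and the groups overlapped. The difference was 0.25 ± 0.30 on the log2 scale (SE, n = 3 each; edgeR adjusted p = 0.52), and it turned to -0.59 with library totals (adjusted p = 0.154). Inhba was set against the summed per-kilobase level of Inhba, Inhbc and Inhbe, without Inhbb, the beta B subunit gene. It made up 1.88%, 3.79% and 5.65% of that sum in GZM 1, 2 and 3 against 26.8%, 19.9% and 9.20% in GM 1, 2 and 3. The rest of the sum is Inhbc and Inhbe, which both rose. These shares do not depend on the scaling between libraries.

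Tgfb1 (ENSRNOG00000020652, chromosome 1, 82480195 to 82497199), the most widely expressed TGF-beta isoform, was lower in every GZM library than in any GM library. It stood at 59.6, 41.8 and 53.1 CPM in GZM 1, 2 and 3 and at 95.1, 90.0 and 100.3 CPM in GM 1, 2 and 3. The GM libraries lay closer together than the GZM libraries, of which GZM 2 was the lowest. The difference was -0.89 ± 0.17 on the log2 scale (SE, n = 3 each; edgeR adjusted p = 0.00584). It was -1.71 with library totals (adjusted p = 0.000827), or -0.79 relative to the median of all genes on that scale and -0.80 relative to the median on the TMM scale. GM 3 had the highest Tgfb1 level. Of GM it stood nearest to GZM in the hepatocyte and cell division markers. It was the highest of GM in summed macrophage and Kupffer cell markers (2982.7 CPM, against 1538.1 and 1216.6 in GM 1 and 2). The same held for T-cell and natural killer markers (590.6 CPM, against 320.1 and 328.8). The part of any of these in the Tgfb1 level was not tested.

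On the TMM scale, markers of other cell types moved in both directions, where 22.2% of all tested genes rose and 21.7% fell. Of 9 macrophage and Kupffer cell markers 2 rose and 4 fell, at a summed level of 1363 to 1871 CPM in GZM against 1217 to 2983 CPM in GM. Of 9 T-cell and natural killer markers none rose and 2 fell, at 97.8 to 264.2 CPM in GZM against 320.1 to 590.6 CPM in GM. Stellate cell and fibroblast markers had 2 of 12 higher and 2 lower, at 2241 to 4757 CPM in GZM against 4573 to 10916 CPM in GM. Endothelial markers had 5 of 9 higher and 1 lower, at 392.7 to 462.1 CPM in GZM against 211.8 to 340.1 CPM in GM. Of 8 neutrophil and platelet markers none rose and 1 fell, and of 6 cholangiocyte markers 1 rose and none fell, with summed levels of GZM and GM overlapping for both lists. With library totals 1 macrophage marker rose and 6 fell, and no marker of the other lists in this paragraph rose. Stellate cell markers then had 10 lower, T-cell and natural killer markers 6 lower and endothelial markers 1 lower. Leaving out each library in turn moved the number that fell to 0 to 4 macrophage, 2 to 8 T-cell and natural killer and 1 to 3 stellate cell markers, and the number of endothelial markers that rose to 2 to 6. No marker of these lists was at 0 in all 6 libraries, and the part of these cells in the Tgfb1 difference was not tested.

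Tgfb2 (ENSRNOG00000002418), the lowest of the 3 TGF-beta isoforms, was measured at 8.11, 9.14 and 9.49 CPM in GZM and at 11.8, 6.38 and 4.78 CPM in GM. The GZM values lay inside the GM range. The difference of 0.22 ± 0.35 on the log2 scale (SE, n = 3 each; edgeR adjusted p = 0.62) turned to -0.64 with library totals (adjusted p = 0.173). Tgfb3 (ENSRNOG00000009867), a mesenchymal isoform, was measured at 28.7, 21.4 and 19.8 CPM in GZM and at 41.6, 22.1 and 21.7 CPM in GM. GM 1 was the highest and GZM 1 the next, and the other libraries lay close together. The difference of -0.29 ± 0.29 (edgeR adjusted p = 0.439) turned to 0.081 without GM 1 (adjusted p = 0.801), and passed as lower with library totals (-1.15, adjusted p = 0.0136), where it was -0.23 relative to the median of all genes.

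**Figure D2:**
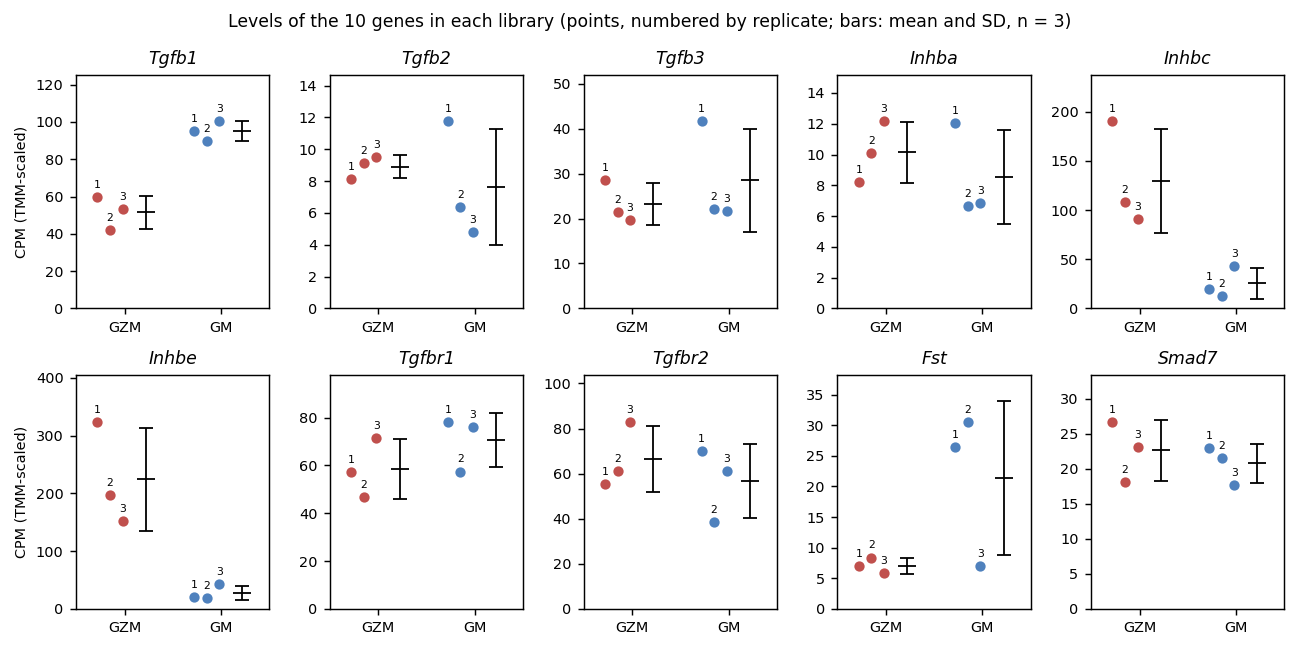
TMM-scaled CPM of each of the 10 genes by group, GZM on the left and GM on the right, 1 point per library with its replicate number; the bar beside them is the mean with the SD of 3 libraries. Inhbe, Inhbc and Tgfb1 separate the groups, while in Fst the GM 3 point lies among the GZM points.

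The share of the activin subunit genes Inhba, Inhbc and Inhbe in the summed ligand level did not overlap between the groups. Inhbb was not included. Inhbe, Inhbc and Tgfb1 are parts of this level and did not overlap by themselves, so the share restates their differences. Of all tested genes 58.1% did not overlap. Per kilobase of exon, the 3 activin subunit genes supplied 80.8%, 77.7% and 70.9% of the summed level of the 6 ligand genes in GZM 1, 2 and 3, against 21.8%, 20.2% and 34.2% in GM 1, 2 and 3. Their sum was 119.9 ± 45.7 CPM per kilobase in GZM and 20.0 ± 8.33 in GM (mean ± SD of 3 libraries). For the 3 TGF-beta genes together the level was 35.0 ± 5.44 CPM per kilobase in GZM, against 57.1 ± 5.58 in GM. Within the TGF-beta genes, Tgfb1 supplied 68.6% ± 3.14 in GZM and 78.2% ± 6.82 in GM, and these groups overlapped. The share and both sums had an exact two-sided permutation p of 0.1, the smallest possible (0.136 adjusted), and the Tgfb1 share 0.2 (0.237 adjusted).

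**Figure D3:**
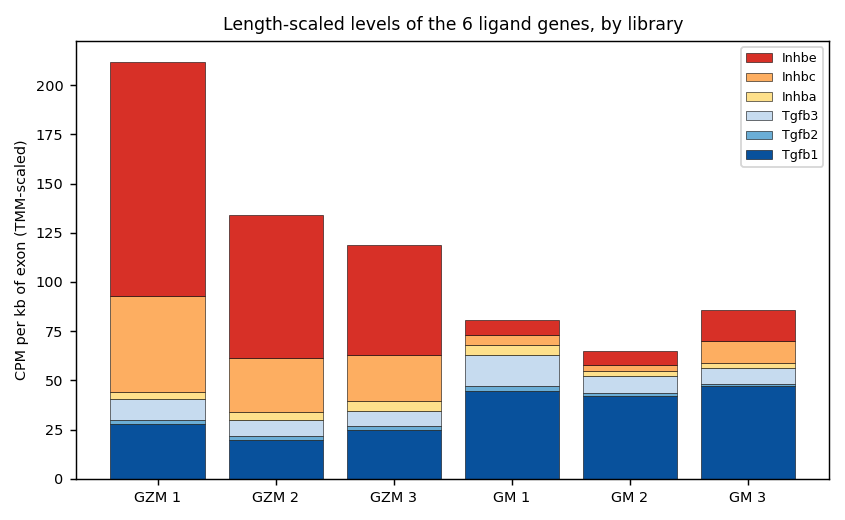
Stacked levels of the 6 ligand genes in CPM per kilobase of exon, TMM-scaled, for each library, GZM libraries on the left. In the GZM bars Inhbe is the widest band, and in the GM bars Tgfb1 is.

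The order of the levels, compared per kilobase of exon, was not the same in the 2 groups. In GZM Inhbe led with 82.6 ± 32.7 CPM per kilobase, above Inhbc at 33.4 ± 13.7, with no overlap between them. Inhbc, Tgfb1 (24.1 ± 4.21) and Tgfbr2 (23.9 ± 5.26) followed with overlapping ranges, and Tgfb2 was the lowest at 2.06 ± 0.17. In GM Tgfb1 led with 44.5 ± 2.42, clear of Tgfbr2 at 20.3 ± 5.90. From Tgfbr2 down to Tgfb2 (1.77 ± 0.85), the lowest, each GM gene overlapped its neighbor in the order. Inhbe was the sixth in GM at 10.1 ± 4.65, and Inhbc, at 6.57 ± 4.05, came directly below it.

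The receptor genes did not pass. Tgfbr1 (ENSRNOG00000007036), the type I receptor kinase, stood at 57.4, 46.7 and 71.5 CPM in GZM and at 78.4, 57.5 and 76.0 CPM in GM, with overlapping groups. The difference was -0.27 ± 0.20 on the log2 scale (SE, n = 3 each; edgeR adjusted p = 0.312). With library totals it passed as lower (-1.09, adjusted p = 0.00419). Relative to the median of all genes it was -0.17 on that scale and -0.18 on the TMM scale. Tgfbr2 (ENSRNOG00000013265), the ligand-binding type II receptor, stood at 55.3, 61.1 and 83.1 CPM in GZM and at 70.2, 38.3 and 61.0 CPM in GM. The difference was 0.24 ± 0.26 (edgeR adjusted p = 0.477), turning to -0.58 with library totals (adjusted p = 0.0873).

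Ratios within a library, which no scaling between libraries can change, set the ligand against its receptors. Per kilobase, Tgfb1 stood at 2.85, 2.45 and 2.04 times the level of Tgfbr1 in GZM 1, 2 and 3 and at 3.33, 4.29 and 3.62 times in GM 1, 2 and 3. Tgfb1 stood at 1.40, 0.89 and 0.83 times the level of Tgfbr2 in GZM and at 1.76, 3.06 and 2.14 times in GM. Tgfbr2 over Tgfbr1 was 2.41 ± 0.36 in GZM and 1.66 ± 0.24 in GM (mean ± SD of 3 libraries). None of these ratios overlapped between the groups, and each had an exact two-sided permutation p of 0.1, the smallest possible (0.136 adjusted over the 19 comparisons). Of all tested genes 58.1% did not overlap either. Tgfb1 alone did not overlap, so its ratios to the receptors are not separate from that difference.

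Among the inhibitors, Fst (ENSRNOG00000011631), whose product follistatin traps activins, was measured at 6.91, 8.38 and 5.80 CPM in GZM and at 26.4, 30.6 and 6.98 CPM in GM 1, 2 and 3. GM 1 and GM 2 were well above all GZM libraries, and GM 3 lay inside the GZM range. The difference was -1.60 ± 0.50 on the log2 scale (SE, n = 3 each; edgeR adjusted p = 0.0332). The call was lost on leaving out any 1 library other than GM 3, with values from -1.74 to -1.24 and adjusted p from 0.0745 to 0.102. Fst followed the cell division markers within GM, whose summed level was 946.7, 1250.2 and 455.0 CPM in GM 1, 2 and 3, and their part in the result was not tested. Per kilobase, Fst stood at 1.96, 1.94 and 1.11 times the level of Inhba in GZM and at 5.12, 10.7 and 2.37 times in GM (exact permutation p = 0.1, the smallest possible; 0.136 adjusted).

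Smad7 (ENSRNOG00000018359), the inhibitory SMAD that TGF-beta itself induces, stood at 26.7, 18.1 and 23.1 CPM in GZM and at 23.0, 21.6 and 17.7 CPM in GM. The groups overlapped, and the difference was 0.12 ± 0.20 on the log2 scale (SE, n = 3 each; edgeR adjusted p = 0.638). It passed as lower with library totals (-0.72, adjusted p = 0.0317), and was 0.20 above the median of all genes on that scale. Per kilobase, the ratio of Tgfb1 to Smad7 was 4.58 ± 0.09 in GZM and 9.35 ± 1.75 in GM, without overlap (exact permutation p = 0.1, the smallest possible, and 0.136 adjusted). This ratio carries the Tgfb1 difference and is not separate from it.

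**Figure D4:**
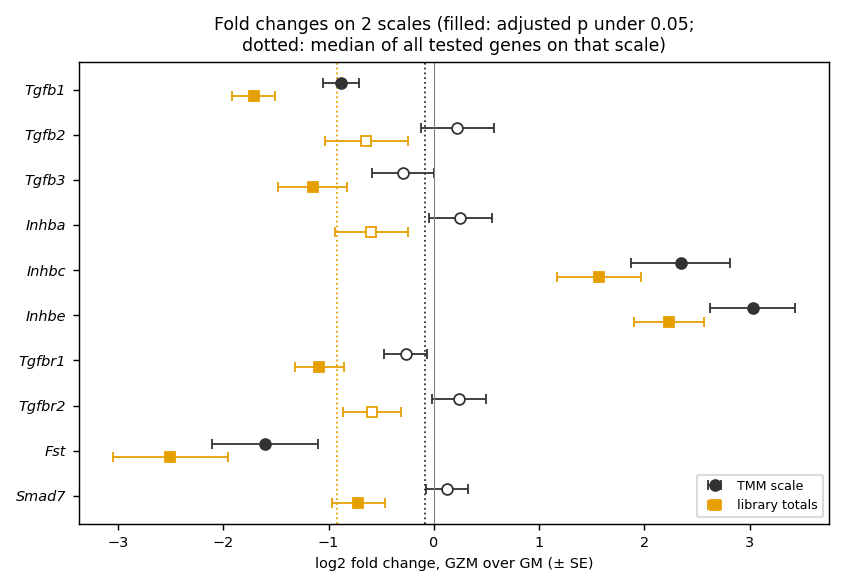
Log2 fold changes of the 10 genes, GZM over GM, with their SE, on the TMM scale (black circles) and with library totals (orange squares). Filled symbols passed at an adjusted p under 0.05, and dotted lines mark the median of all tested genes on each scale (-0.09 and -0.92). The 10 genes keep much the same distance from the dotted line on both scales. Changing the scale moves all genes by nearly the same amount, so this distance does not test the calls.

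Other ligands of the family were given from a list of 8, of which 4 could be tested, 1 rising and 2 falling. Over all tested genes 44% were called. Inhbb, the beta B subunit gene, rose to 14.6 ± 5.13 CPM in GZM, against 6.23 ± 2.83 in GM (log2 fold change 1.23 ± 0.38 SE, n = 3 each; edgeR adjusted p = 0.033). Inha, the alpha subunit that turns activins into inhibins, fell to 0.23 ± 0.15 CPM in GZM, against 1.10 ± 0.23 in GM (-2.18 ± 0.54, adjusted p = 0.0145), which rests on 2, 1 and 5 counts in GZM and 18, 26 and 26 in GM. Gdf11, a relative of myostatin, fell to 2.84 ± 0.85 CPM in GZM, against 13.2 ± 4.43 in GM (-2.21 ± 0.35, adjusted p = 0.00342). Inhbb lost its call with library totals (0.39, adjusted p = 0.426), with limma on either FPKM scale and under the replicate block. It was also lost without GZM 2, GZM 3, GM 2 or GM 3 (adjusted p 0.0578 to 0.121). Inhbb kept its call under 6 of 14 alternatives. Inha lost it without GZM 2 (-1.83, adjusted p = 0.0677) and also when GM 3 and GZM 1 were left out together (-1.86, adjusted p = 0.0582). Gdf11 kept its call under all 14 alternatives.

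Of 8 other receptor genes 3 rose and 1 fell, at a list median of 0.11, where 44% of all tested genes were called. The type I receptor genes of the activin receptor family Acvr1 (0.68 ± 0.20) and Acvr1c (1.53 ± 0.46) rose, as did the type II receptor gene Acvr2a (0.41 ± 0.14), with edgeR adjusted p of 0.0253, 0.0299 and 0.0434. Tgfbr3, the coreceptor betaglycan, fell by 0.58 ± 0.18 on the log2 scale (adjusted p = 0.0325). Acvr1 and Acvr2a turned to -0.17 and -0.43 with library totals, where none of the 8 rose and 4 fell. Leaving out each library left 0 to 4 higher and 0 to 1 lower. The calls lost were Acvr1 without GZM 1, 2 or 3 (adjusted p 0.0580 to 0.0918), Acvr1c without GZM 2, GZM 3, GM 1 or GM 2 (0.0659 to 0.121), Acvr2a without any GZM library or GM 1 (0.0892 to 0.162), and Tgfbr3 without GZM 2, GZM 3, GM 1 or GM 2 (0.0696 to 0.139). With the replicate block 1 rose and none fell.

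The SMAD list had 3 of 7 tested genes lower and none higher, at a median of -0.42. The share called was close to the 44% called over all tested genes. Smad2, which TGF-beta and activin receptors phosphorylate, fell by 0.64 ± 0.17 on the log2 scale (SE, n = 3 each; edgeR adjusted p = 0.0189), to 25.7 ± 2.22 CPM in GZM, against 40.1 ± 6.81 in GM. Smad4, the common partner, fell by 0.70 ± 0.17 (adjusted p = 0.0136), and Smad5, of the bone morphogenetic protein (BMP) branch, by 1.07 ± 0.28 (adjusted p = 0.0172). Leaving out each library left 0 to 1 higher and 0 to 4 lower. Smad2 lost its call without GZM 1, 2 or 3 or GM 1 (adjusted p 0.0520 to 0.0682), Smad4 without GZM 2 (0.0695), and Smad5 without GZM 1, GZM 2 or GM 1 (0.0552 to 0.0602).

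Among 14 tested inhibitors and modulators 2 rose and 3 fell, at a median of -0.41, where 44% of all tested genes were called. Chrd, which encodes the BMP antagonist chordin, rose by 2.08 ± 0.42 on the log2 scale to 33.7 ± 5.85 CPM in GZM, against 7.98 ± 5.19 in GM (edgeR adjusted p = 0.00702, n = 3 each). Tgif1, a corepressor of SMAD proteins, rose by 0.73 ± 0.23 (adjusted p = 0.0339). The SMAD corepressor gene Skil (-0.94 ± 0.30), the receptor ubiquitin ligase gene Smurf1 (-0.55 ± 0.16) and the deubiquitinase gene Usp15 (-0.49 ± 0.16) fell, at adjusted p of 0.0368, 0.0252 and 0.0375. With library totals 1 rose and 10 fell, and Tgif1 turned to -0.12. Leaving out each library left 1 to 2 higher and 0 to 3 lower. Calls were lost for Tgif1 without GZM 2, GZM 3, GM 1 or GM 3 (adjusted p 0.0524 to 0.130), Skil without GZM 1, GZM 2, GM 1 or GM 2 (0.0822 to 0.134), Smurf1 without GZM 2, GZM 3 or GM 1 (0.0764 to 0.106), and Usp15 without any library but GM 3 (0.073 to 0.134).

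Genes that store and activate latent TGF-beta had 2 of 14 higher and 4 lower, at a median of -0.28. The share called was close to the 44% called over all tested genes. Thbs1, whose product thrombospondin can release active TGF-beta, fell by 1.54 ± 0.27 on the log2 scale, to 28.7 ± 3.35 CPM in GZM, against 83.7 ± 32.3 in GM (SE for the fold change, SD for levels, n = 3 each; edgeR adjusted p = 0.00426). Ltbp1, which tethers the latent complex to matrix, fell by 1.32 ± 0.31 (adjusted p = 0.0122). Nrros, which anchors latent TGF-beta on myeloid cells, fell by 0.79 ± 0.21 (adjusted p = 0.0181), and the urokinase gene Plau by 0.71 ± 0.25 (adjusted p = 0.0492). The genes that rose were Furin, the protease that cleaves the TGF-beta precursor (1.27 ± 0.19, adjusted p = 0.0028), and Plg, the plasminogen gene, a hepatocyte product (2.19 ± 0.51, adjusted p = 0.0115). Furin stood at 0.45 with library totals (adjusted p = 0.0527), where 1 gene rose and 9 fell. Leaving out each library left 2 to 3 higher and 1 to 4 lower. Ltbp1 lost its call without GZM 2 (adjusted p = 0.0526), Nrros without GZM 2 or GZM 3 (0.0718 to 0.084), Plau without any library but GM 2 (0.053 to 0.164) and Plg without GM 1 (0.0529). Plau also lost its call with DESeq2, and kept it under only 6 of 14 alternatives.

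Of 16 tested TGF-beta target genes 5 fell and 1 rose, at a median of -0.87, against -0.09 over all tested genes. The 6 of 16 called are a smaller share than the 44% called over all tested genes. Cdkn2b, a cell cycle inhibitor gene induced by TGF-beta, fell by 2.08 ± 0.38 on the log2 scale, to 6.79 ± 1.63 CPM in GZM, against 28.7 ± 14.6 in GM (edgeR adjusted p = 0.00497, n = 3 each). The matrix genes Postn (-1.62 ± 0.46, adjusted p = 0.0244) and Col1a1 (-1.52 ± 0.50, adjusted p = 0.0386) also fell, as did the cell cycle inhibitor gene Cdkn1a (-1.26 ± 0.37, adjusted p = 0.0257). Fn1, the fibronectin gene, which hepatocytes also express, rose to 3678 ± 99.2 CPM in GZM, against 1424 ± 383.6 in GM (1.37 ± 0.31, adjusted p = 0.0101), and stood at 0.54 with library totals (adjusted p = 0.106). Col1a1, Col3a1 and Acta2 of this list are also in the stellate cell and fibroblast list given above.

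The number of target genes that fell depended on the libraries. It was 1 to 7 on leaving out each library in turn, 9 without both GM 3 and GZM 1, and 15 with library totals, where none rose. Postn lost its call without GZM 2, GZM 3 or GM 1 (adjusted p 0.0642 to 0.0861), Col1a1 without GZM 2, GZM 3 or GM 1 (0.108 to 0.137) and Cdkn1a without GZM 1, 2 or 3 (0.0571 to 0.0837).

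In the neighboring BMP branch 5 of 14 genes rose and 1 fell, at a median of 0.33. The share called was close to the 44% called over all tested genes. Hamp, the hepcidin gene and a BMP target in hepatocytes, rose by 2.20 ± 0.36 on the log2 scale, to 319.2 ± 142.6 CPM in GZM, against 69.3 ± 13.1 in GM (edgeR adjusted p = 0.00358, n = 3 each). The ligand genes Bmp7 (1.93 ± 0.42) and Gdf2 (1.37 ± 0.33) and the target genes Id4 (1.72 ± 0.30) and Id2 (0.86 ± 0.23) also rose, at adjusted p of 0.0088, 0.0129, 0.00426 and 0.0202. The receptor gene Bmpr1b fell by 2.49 ± 0.55 (adjusted p = 0.00946), to 3, 2 and 4 counts in GZM 1, 2 and 3, against 33, 52 and 16 counts in GM 1, 2 and 3. With library totals 3 rose and 6 fell, Id2 stood at 0.05 and Gdf2 at 0.55 (adjusted p = 0.15). Without GM 3 the number that fell was 5, without both GM 3 and GZM 1 it was 3, and Id2 lost its call without GZM 1, GM 1 or GM 2 (adjusted p 0.0549 to 0.0765).

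**Figure D5:**
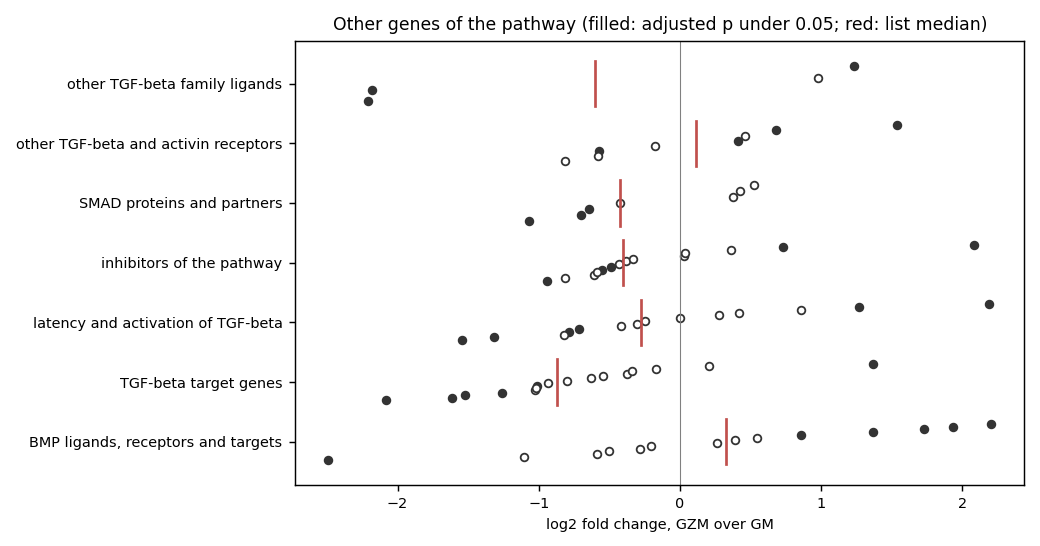
Log2 fold change, GZM over GM, of each tested gene in 7 lists of the pathway, 1 point per gene; filled points passed at an adjusted p under 0.05 and the red line is the list median. The target genes have the lowest median, -0.87, and the BMP list the highest, 0.33.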

How the data were processed

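RNA was, per the labels' protocols, extracted with TRIzol, enriched for polyadenylated transcripts and made into strand-specific paired-end libraries. The deposited counts are whole numbers per gene, not normalized. The deposited FPKM values equal the counts divided by exon length and library total (195738 of 195738 values within 0.01). Which aligner and counter were used, and whether strand was used in counting, is not given in the sources used here. The submitters' processing notes name build mRatBN 7.2, but positions in the table reach 282724300 on chromosome 1, beyond that build, so they are printed as deposited. Columns headed ZGM were taken as the GZM samples of the same number.

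Counts were fitted with edgeR 4.0.16 (R 4.3.3; TMM, default filter, quasi-likelihood test, no covariate, threshold 0.05). SE is that implied by the quasi-F value. The fit was tested on simulated data. Alternatives used limma 3.58.1 on log2(FPKM + 1) and log2(FPKM + 0.1) with a mean FPKM of at least 0.5, and DESeq2 1.42.0. The ratio tests were exact. Figures were drawn with matplotlib 3.10.9. The members and lists were chosen with earlier results of these data known. Named genes are the members and, of each pathway list, all called genes, or the 4 of smallest p in each direction where over 6 were called. The up to 3 genes that the rule also names per marker list are covered by counts and sums only. Of the called target genes 1 is counted but not reported here by name.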

Additional observations from a re-analysis of the deposited data

How the results depend on the processing

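Results were recomputed under 14 alternatives, Acvr1c under 12, since it did not pass the FPKM filter of the limma fits. For the genes of the lists, not every call lost with a change of method is named. Inhbe, Inhbc and Tgfb1 kept their direction and their call under all 14. Inhbe ranged from 2.13 to 3.51 (adjusted p 2.36e-12 to 0.0146), Inhbc from 1.49 to 2.99 (4.27e-06 to 0.0319) and Tgfb1 from -1.72 to -0.75 (0.00014 to 0.0322), and Fst kept its call under 9 of 14.

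The number of the 10 genes that rose was 2 throughout. The number that fell was 2, but 5 with library totals and with limma on either FPKM scale, and 1 to 2 on leaving out each library. Over all genes 1318 rose and 8500 fell with library totals, 1351 and 8343 with limma on log2(FPKM + 1), and 1347 and 8365 with limma on log2(FPKM + 0.1). All 3 use library totals, where the median of all genes was -0.92, -0.70 and -0.89. Leaving out each library gave 2112 to 3592 higher and 1665 to 3432 lower. GM 3 with GZM 1 was the only pair left out together, a chosen subset. Without both the numbers were 3644 and 3353. With that pair left out, Acvr2a (0.46, adjusted p = 0.0596), Usp15 (-0.43, 0.0601) and Plau (-0.45, 0.225) lost their calls, as Inha did.

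Directions turned with library totals, limma on log2(FPKM + 1) and limma on log2(FPKM + 0.1), in that order, for Tgfb2 (-0.64, -0.36, -0.49), Inhba (-0.59, -0.43, -0.53), Tgfbr2 (-0.58, -0.55, -0.57), Smad7 (-0.72, -0.60, -0.70), Acvr1 (-0.17, -0.12, -0.13), Acvr2a (-0.43, -0.38, -0.42) and Tgif1 (-0.12, -0.13, -0.13). Smad7 also turned without GZM 1 (-0.00292; range over left-out libraries -0.00292 to 0.27) and without both GM 3 and GZM 1 (-0.038), and Tgfb3 without GM 1 (0.081; range -0.46 to 0.081). For the lists, 293 of the recomputed counts stayed within 1.5 times and 127 did not; the cause was not tested.

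Whether the replicate numbers pair the samples is not given. Deviations of same-numbered libraries from their group mean correlated at -0.14, 0.16 and -0.27 across genes. For differently numbered libraries the values ran from -0.22 to 0.30, the highest for GZM 1 with GM 3. Deviations within a group are tied to each other, so these values cannot settle the pairing. With the replicate block 2676 genes rose and 2490 fell, and the 10 genes kept 2 higher and 2 lower. Counts were low for Fst (69, 89 and 74 in GZM against 549, 720 and 136 in GM), Tgfb2 (81 to 121 in GZM, 93 to 244 in GM) and Inhba (82 to 155 in GZM, 134 to 250 in GM).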
